A study of Mus with 12 samples.

Results

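The comparison described here set the uterus of pregnant mice at E18.5, close to labor, against the uterus at E15.5. Its members were the annotated rows of the expression table that holds both days, chosen as the rows whose transcript identifiers include an Ensembl mouse transcript. There were 33589 such rows of 40787 in all, and 23763 of them reached a mean of 0.1 FPKM over the 6 libraries and were tested. FPKM scales the fragments of a gene by its transcript length and by the mapped fragments of the library, so levels of different genes are set side by side per length. The series held 12 samples over 4 days of pregnancy, of which 6 are used here: 3 mice at E15.5 and 3 at E18.5. All were pregnant ICR mice, an outbred stock, 8 weeks old, and each library came from the uterus of a single mouse. The labels number the mice 1 to 3 on each day, and nothing in them pairs a mouse of one day with a mouse of the other. The study took the uterus whole, so muscle, stroma, epithelium, blood vessels, immune cells, decidua and any placental or fetal tissue left on the wall may have been read together. In such bulk tissue, fewer cells of a type and less RNA per cell cannot be told apart.

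Progesterone keeps the pregnant uterus relaxed, and in mice its level in blood falls before birth as the corpora lutea regress. The muscle layer then gains receptors, channels and gap junctions through which oxytocin and prostaglandins drive coordinated contractions, while the matrix of the cervix and uterus is remodelled. The decidua, which carries uterine natural killer cells filled with granzymes and perforin, and the placenta, which secretes prolactin family hormones, lie against the same wall until delivery.

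The 16 genes chosen to check the tissue label did not pass the criterion in either direction, apart from 1 that rose when E15.5 replicate 3 or E18.5 replicate 1 was left out. Their summed level was 646 to 1007 FPKM at E15.5 and 1032 to 1211 FPKM at E18.5. Esr1, the estrogen receptor, lay between 22.9 and 31.9 FPKM, and Hoxa11, a uterine homeobox gene, lay between 6.73 and 13.8 FPKM over the 6 libraries. Hand2, a stromal transcription factor, and Myh11, the smooth muscle myosin heavy chain, were present in each library. E15.5 replicate 1 stood apart from the other 5 libraries. Its rank correlation with the other E15.5 libraries was 0.902 and 0.872, against 0.954 between those libraries and 0.946 to 0.956 among the E18.5 libraries. This library also held by far the most RNA of the decidual hormone Prl8a2 and the lowest sum of keratin and junction genes, with values given beside the results they touch. Where a count of a list changes much without it, the count without it is given as well.

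A row was said to rise or fall when its log2 fold change, E18.5 relative to E15.5 on log2(FPKM + 0.1), was at least 1 in size and its unadjusted p from limma was below 0.05, the cut-offs of the study. By this criterion 600 annotated rows rose, 2.52% of those tested, and 634 fell, 2.67%, or 5.19% in either direction. After Benjamini-Hochberg adjustment over all 30928 rows of the table, 6 annotated rows remained below 0.05, 0.0252%. At an adjusted p below 0.1 there were 60, so most of the calls that follow are unadjusted, and the adjusted p is given for the genes described in full. Among protein-coding rows 394 rose, 2.7%, and 344 fell, 2.36%, and of 1346 annotated lncRNA rows 26 rose and 37 fell, 4.68% in either direction. The 3 libraries of E18.5 all lay above the 3 of E15.5 in 10.9% of annotated rows and all lay below them in 8.92%, 19.8% in either direction. Permuting 3 mice against 3 exactly, for any single gene, gives no p below 0.1. The p-values measure the spread between these mice alone. Leaving out E15.5 replicate 1 gave 469 rows that rose and 559 that fell, and leaving out E18.5 replicate 1 gave 435 and 555.

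**Figure D1:**
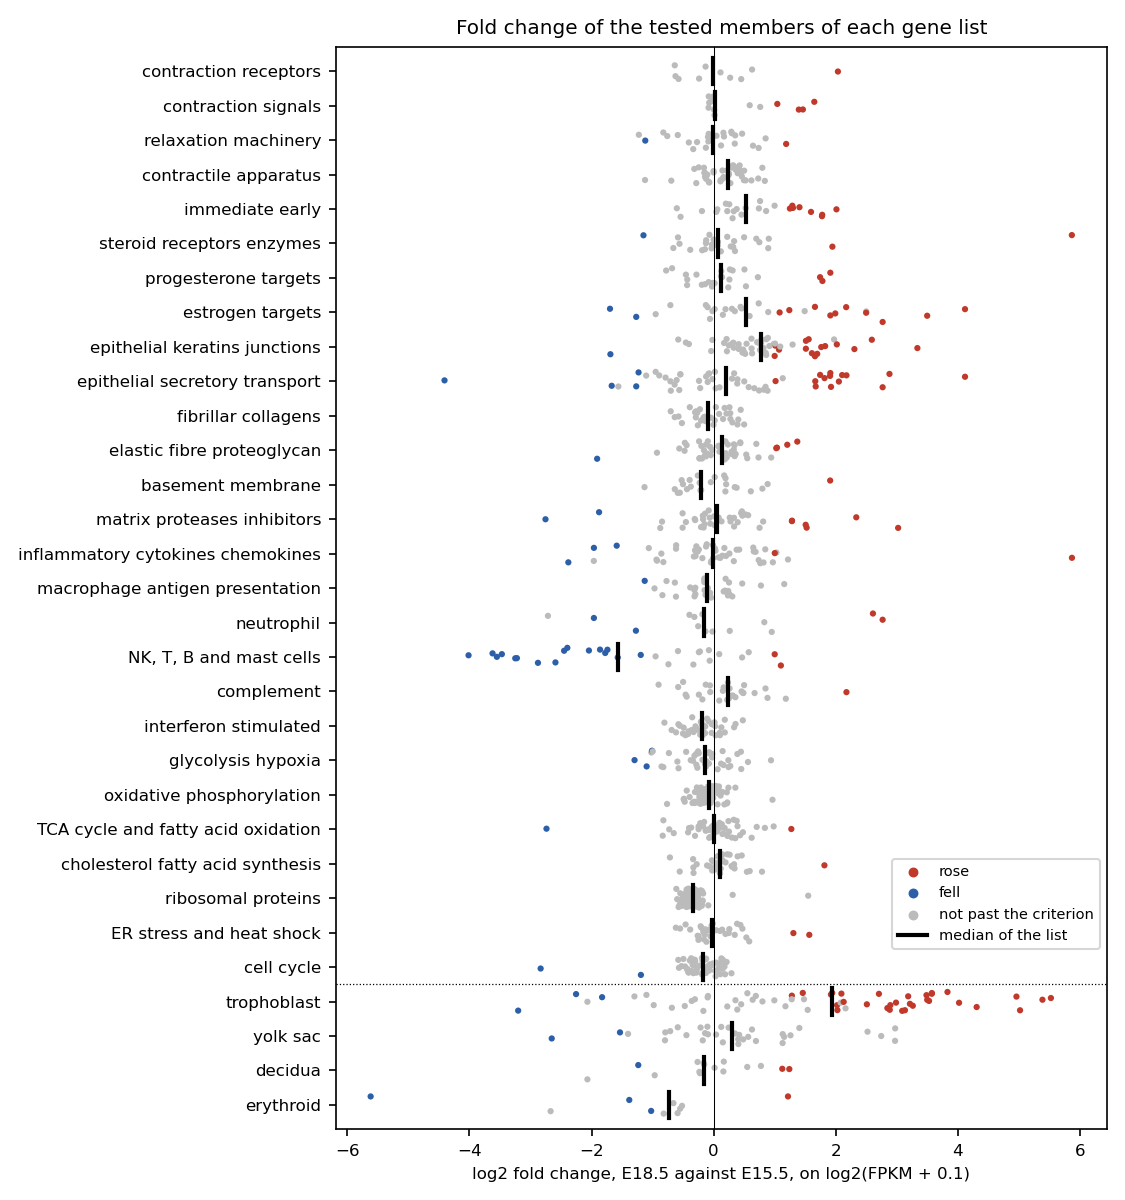
Log2 fold change (E18.5 against E15.5, on log2(FPKM + 0.1)) of each tested member of each gene list shown, with rows that rose in red, rows that fell in blue, the rest in grey and the median of each list as a black bar. The natural killer, T, B and mast cell list lies to the left with a median of -1.57, the keratin and junction list lies to the right with a median of 0.78, and the lists under the dotted line are those of possible attached tissue, where the trophoblast list has a median of 1.93.

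The genes that carry the contraction signal changed in a few members, while the contractile proteins did not pass the criterion. Oxtr, the receptor for oxytocin, was at 1.496, 1.06 and 1.10 FPKM in the E15.5 libraries and at 6.76, 5.52 and 3.89 FPKM in the E18.5 libraries. All E18.5 values lay above all E15.5 values, and Oxtr rose by 2.04 on the log2 scale (SE 0.24, adjusted p = 0.0709). It was the single receptor of 10 tested on the contraction list that rose, against 2.52% of all annotated rows, the median of the list being -0.01. Ptgfr, the receptor for prostaglandin F2 alpha, had a log2 fold change of -0.24 and Ptger3, a receptor for prostaglandin E2, of -0.13, and neither passed.

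Of 13 tested genes for contraction signals and coupling, 4 rose, against 2.52% of all annotated rows, and none fell, at a list median of 0.02. The count was 2 without E15.5 replicate 1 or E18.5 replicate 1, and the median was then 0.43 or 0.36. Ptgs1, the constitutive cyclooxygenase that begins prostaglandin synthesis, was at 7.31, 17.8 and 33.5 FPKM at E15.5 and at 60.7, 56.9 and 39.7 FPKM at E18.5. The lowest E18.5 library lay above the highest E15.5 library, and the log2 fold change was 1.65 (SE 0.51, adjusted p = 0.282). Ptgs2, the inducible cyclooxygenase, was at 3.39, 0.944 and 1.23 FPKM at E15.5 and at 3.91, 5.89 and 3.56 FPKM at E18.5. Its E15.5 replicate 1 came close to the E18.5 range, and it rose by 1.40 on the log2 scale (SE 0.46, adjusted p = 0.302). Trpv4, a calcium-permeable channel, rose by 1.46 and Edn1, the vasoactive and contractile peptide endothelin-1, rose by 1.04. Gja1, the gap junction protein connexin 43, ranged from 1.88 to 16.4 FPKM at E15.5 and from 3.70 to 12.8 FPKM at E18.5, with overlapping groups and a log2 fold change of -0.04. Cacna1c, the pore of the L-type calcium channel, lay higher in all E18.5 libraries at a log2 fold change of 0.59 and did not reach the fold criterion.

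Several of these calls were lost when a mouse was left out. The call for Ptgs2 was lost without E15.5 replicate 2 (log2 fold change 1.05), without E15.5 replicate 3 (1.22) and without E18.5 replicate 2 (1.18). Trpv4 was lost without E15.5 replicate 1 (0.90) or E18.5 replicate 1 (1.27), and Edn1 without E15.5 replicate 1 (0.86), E18.5 replicate 1 (0.91) or E18.5 replicate 3 (at 0.998904, just under the fold criterion). Oxtr and Ptgs1 passed in each of the 6 fits that left out a mouse.

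None of 42 tested genes of the contractile apparatus rose or fell, and 28 of them had a positive fold change at a list median of 0.23. That median was 0.11 without E15.5 replicate 1 and 0.11 to 0.35 over the fits that left out a mouse. When a mouse was left out, 2 rose without E15.5 replicate 3, 1 rose without E15.5 replicate 2 and 1 fell without E18.5 replicate 3, and 1 fell with the replicate number as a block. At an unadjusted p below 0.05 without a fold criterion, Des, the muscle intermediate filament desmin, was higher at E18.5, at 462, 413 and 419 FPKM against 286, 269 and 349 FPKM (log2 fold change 0.52). Acta2, smooth muscle actin, was at 1187, 1097 and 1541 FPKM at E15.5 and at 1265, 1522 and 1745 FPKM at E18.5, with overlapping groups and a log2 fold change of 0.25. Myh11 and Actg2, the enteric smooth muscle actin, had log2 fold changes of 0.45 and 0.50 and did not pass. Of 27 tested genes of the relaxing machinery 7.41% were called, against 5.19% of all annotated rows. Kcnq1, a potassium channel subunit, rose by 1.19 and Calca, the gene of the dilator peptide CGRP, fell by 1.12. Over the fits that left out a mouse 0 to 2 genes of this list rose and 0 to 2 fell. There were none in either direction without E15.5 replicate 1 and 2 in each without E18.5 replicate 3. Kcnq1 was lost without E15.5 replicate 1 (0.89), and Calca passed in 1 of its 6 fits, with log2 fold changes from -1.61 to -0.80.

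**Figure D2:**
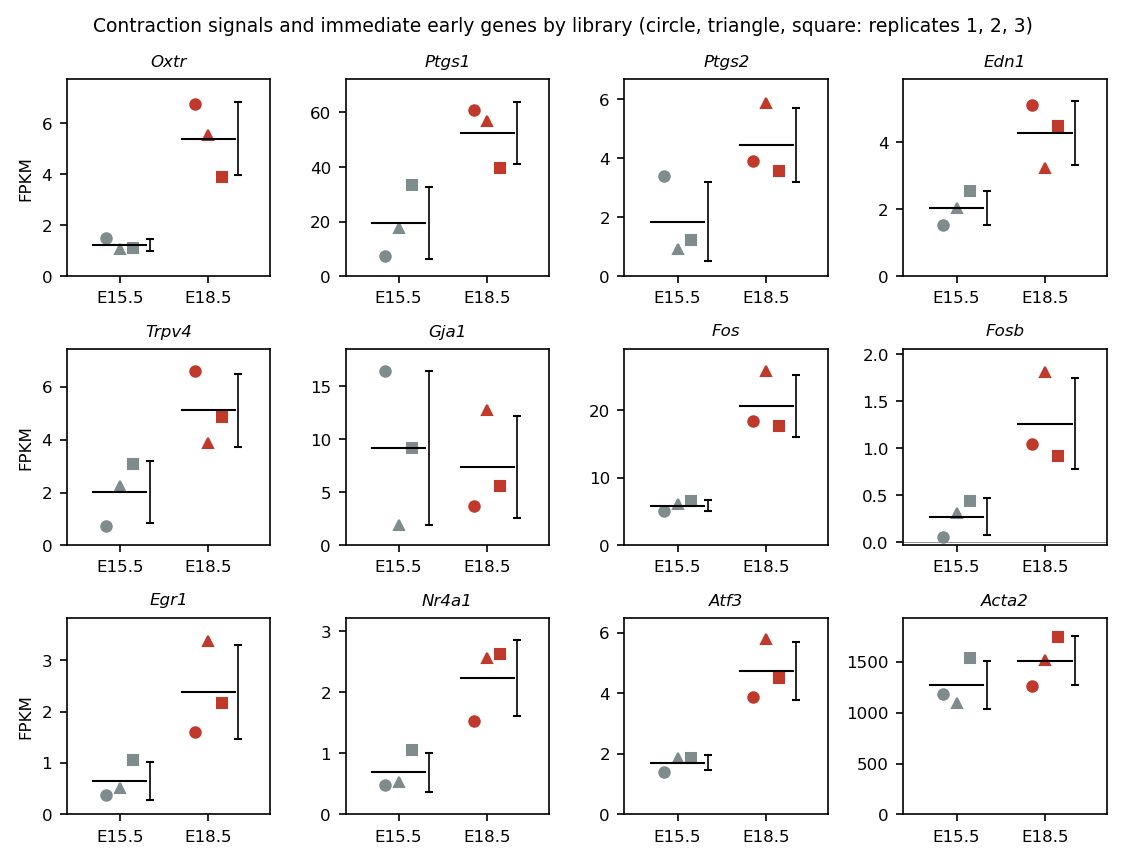
FPKM of contraction and immediate early genes in each library, on a linear axis that includes 0 for each gene, with E15.5 in grey and E18.5 in red. Black lines are means and bars are SD of 3 mice. Oxtr and Fos show separated groups, while Gja1 and Acta2 overlap between days.

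The immediate early genes, transcription factors and secreted proteins that cells switch on within minutes of stretch or hormone signals, rose in part. Of 25 tested, 8 rose, 32% against 2.52% of all annotated rows, 17 did not pass and none fell. In 3 the fold change was negative, and in 2 all E18.5 libraries lay below all E15.5 libraries. The median of the list was 0.53 against 0.01 for all annotated rows, and in 15 of the 25 all E18.5 libraries lay above all E15.5 libraries, against 10.9% of all annotated rows. Fos was at 5.04, 6.15 and 6.56 FPKM at E15.5 and at 18.4, 25.9 and 17.7 FPKM at E18.5, rising by 1.78 on the log2 scale (SE 0.19, adjusted p = 0.0545). The groups were separated by more than the spread within either day. Atf3, a stress-induced factor of the same bZIP class, was at 1.41, 1.87 and 1.85 FPKM at E15.5 and at 3.89, 5.78 and 4.52 FPKM at E18.5 (log2 fold change 1.41, SE 0.20, adjusted p = 0.0911). Fosb rose by 2.01, Egr1 by 1.78 and Nr4a1, an orphan nuclear receptor, by 1.60. Dusp1, a phosphatase that switches off MAP kinases, rose by 1.2995, and the matricellular genes Ctgf and Cyr61, both induced by stretch, by 1.29 and 1.25. Fosl2, a slower member of the Fos family, had overlapping groups and a log2 fold change of 0.20. Without E15.5 replicate 1 the count was again 8 that rose, and over the 6 fits that left out a mouse it was 8 to 10.

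Steroid receptors did not pass the criterion, while some enzymes that change steroids did. Pgr, the progesterone receptor, had a log2 fold change of -0.13 and Esr1 of 0.22, both with overlapping groups. Of 30 tested receptors and enzymes, 2 rose and 1 fell, against 2.52% and 2.67% of all annotated rows. The count that rose was 5 without E15.5 replicate 3 and 3 without E18.5 replicate 2 or 3, and none fell without E15.5 replicate 1 or E18.5 replicate 1. Sult1e1, the estrogen sulfotransferase, which inactivates estrogens by adding a sulfate, was at 0.567, 0 and 0.0983 FPKM at E15.5 and at 17.9, 16.01 and 8.98 FPKM at E18.5. It was at or near 0 in all E15.5 libraries and rose by 5.87 on the log2 scale (SE 0.67, adjusted p = 0.0638), a size that depends on the added 0.1 FPKM. Srd5a1, the 5 alpha-reductase that reduces progesterone and testosterone, shared a row with the predicted gene Gm17108 and was at 14.2, 18.502 and 46.8 FPKM at E15.5 and at 114, 85.5 and 72.7 FPKM at E18.5. It rose by 1.95 (SE 0.44, adjusted p = 0.173), with no overlap between the days. Akr1c18, the 20 alpha-hydroxysteroid dehydrogenase that inactivates progesterone, was at 323, 415 and 635 FPKM at E15.5 and at 843, 721 and 665 FPKM at E18.5. The groups did not overlap, but its log2 fold change of 0.75 was under the criterion. Akr1b7, an aldo-keto reductase, fell by 1.15 and was lost without E15.5 replicate 1 (-0.94) or E18.5 replicate 1 (-0.91). Fkbp5, a progesterone-induced and glucocorticoid-induced chaperone, lay lower in all E18.5 libraries at a log2 fold change of -0.58.

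Of 30 tested genes known to respond to estrogen in the uterus, 10 rose and 2 fell, against 2.52% and 2.67% of all annotated rows, and the list median was 0.52. Without E15.5 replicate 1 these counts were 10 and 3. Several members are made by the epithelium, and Ltf, Sprr2f and Muc1 lay in the same order over the E15.5 libraries as the summed keratin and junction genes (437, 681 and 921 FPKM at E15.5, 1619, 1200 and 1140 FPKM at E18.5), whose part in the result was not tested. Ltf, lactotransferrin, an antimicrobial protein of the uterine epithelium, was at 10.99, 38.2 and 64.5 FPKM at E15.5 and at 247, 218 and 161 FPKM at E18.5. All E18.5 libraries lay above the E15.5 range, and it rose by 2.77 (SE 0.60, adjusted p = 0.167). Sprr2f, a small proline-rich protein of the epithelium, was at 1.14, 2.82 and 3.78 FPKM at E15.5 and at 61.2, 18.2 and 65.4 FPKM at E18.5, rising by 4.12 (SE 0.60, adjusted p = 0.0955). The Sprr2 genes are close copies of each other, so reads may have been split between them. Wnt7b, a Wnt ligand of the epithelium, rose by 2.499, Inhbb, a subunit of activin B, by 1.99 and Wnt4 by 1.24. Padi2, a peptidylarginine deiminase, fell by 1.697, and Aqp8, a water channel, fell from 278, 239 and 190 FPKM to 79.1, 108 and 105 FPKM (log2 fold change -1.27, SE 0.22, adjusted p = 0.121). C3, the complement component that estrogen induces, was at 451.3, 1962 and 2623 FPKM at E15.5 and at 1976, 1740 and 1750 FPKM at E18.5, so that its groups overlapped.

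Of 25 tested genes that depend on progesterone, 3 rose and none fell, against 2.52% and 2.67% of all annotated rows, with a median of 0.12. Cdkn1c, a cell cycle inhibitor, rose by 1.74 and Muc1, a mucin that is also on the estrogen list, by 1.91. Areg, the growth factor amphiregulin, was listed at 0 in all E15.5 libraries and at 0.270, 0.798 and 0.0224 FPKM at E18.5, so it stayed low throughout and its call was kept in 1 of 5 fits that left out a mouse. Without E15.5 replicate 1 the list had 2 rows that rose.

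Among epithelial genes more rows rose than fell. With all 6 libraries, no list outside the attached-tissue lists had more rows that rose than the keratins and junctions, with 15 against 14 for secreted and transport proteins. That order turned without E15.5 replicate 1 (11 against 12) or E18.5 replicate 1 (9 against 10). It also turned with array weights (12 against 13) and with the log2 ratio of group means (13 against 14). Of 55 tested keratins, junction proteins and epithelial regulators, 15 rose, against 2.52% of all annotated rows, and 1 fell, and 49 had a positive fold change at a list median of 0.78. That median was 0.454 without E15.5 replicate 1, 0.454 to 0.996 over the fits that left out a mouse, and 0.545 with array weights. In 23 of the 55, all E18.5 libraries lay above all E15.5 libraries, against 10.9% of all annotated rows. Krt8, a keratin of simple epithelia, was at 51.02, 94.1 and 133 FPKM at E15.5 and at 297, 225 and 244 FPKM at E18.5. No library overlapped, and it rose by 1.56 (SE 0.35, adjusted p = 0.173). Krt19 and Krt7, from the same class, rose by 1.61 and 2.02. Cldn4, a tight junction protein, rose by 2.59, Elf3, an epithelial transcription factor, by 2.31, and Dsp, the desmosome protein desmoplakin, by 1.51. Epcam, an epithelial adhesion molecule, lay higher in all E18.5 libraries at a log2 fold change of 0.54. Dsc2, a desmosomal cadherin, went the other way, from 24.3, 17.5 and 10.4 FPKM to 5.17, 3.98 and 6.11 FPKM (log2 fold change -1.69, SE 0.32, adjusted p = 0.141). Krt5 and Krt14, keratins of layered epithelia such as that of the vagina, stayed under 1 FPKM in all libraries.

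The epithelial level varied among the E15.5 libraries as well. The summed FPKM of the list was 437, 681 and 921 at E15.5 and 1619, 1200 and 1140 at E18.5, so that E15.5 replicate 1, the library with the most Prl8a2, held the least. Its part in the result was not tested beyond leaving it out. Trophoblast is itself an epithelium that makes Krt7, Krt8, Krt18 and Krt19, and trophoblast RNA was also higher at E18.5, though not in the same order among the libraries of a day. The trophoblast list without Prl8a2 summed to 216, 48.6 and 54.3 FPKM at E15.5 and to 415, 533 and 353 FPKM at E18.5, so that the E15.5 library with the lowest keratin and junction sum had the highest trophoblast sum. Of its 60 tested rows 31 rose, against 2.52% of all annotated rows, and its part in the epithelial result was not tested. Without E15.5 replicate 1, 11 keratin and junction rows rose and 2 fell, and without E18.5 replicate 1 the counts were 9 and 1, while without E15.5 replicate 3 they were 24 and 1. Cldn4 was lost without E18.5 replicate 3 (log2 fold change 2.34), Krt7 without E18.5 replicate 1 (1.79), and Dsp without E15.5 replicate 1 (0.90) or E18.5 replicate 1 (1.34).

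Secreted and transport proteins of the epithelium moved both ways. Of 52 tested, 14 rose and 4 fell at a median of 0.20, against 2.52% and 2.67% of all annotated rows. The counts were 12 and 4 without E15.5 replicate 1, 10 and 2 at a median of 0.0088 without E18.5 replicate 1, and 13 and 2 at a median of 0.049 without E18.5 replicate 3. Cftr, the chloride channel that wets the epithelial surface, was at 0.837, 1.46 and 2.14 FPKM at E15.5 and at 11.7, 5.14 and 4.14 FPKM at E18.5, rising by 2.11 (SE 0.46, adjusted p = 0.167). Clu, the secreted chaperone clusterin, rose from 8.27, 10.3 and 16.2 FPKM to 98.9, 42.1 and 31.2 FPKM (log2 fold change 2.18, SE 0.45, adjusted p = 0.158). For each of these genes E18.5 replicate 1 was the highest library and the days did not overlap. Wfdc18, a whey acidic protein family inhibitor, rose by 2.88 from at most 0.167 FPKM, so the size depends on the added 0.1 FPKM. The mucin Muc4 rose by 1.82, and Scnn1a, a subunit of the epithelial sodium channel, by 1.74 with overlapping groups. Tff1, a trefoil peptide of mucous surfaces, was at 30.9, 13.2 and 9.74 FPKM at E15.5 and at 0.305, 0.390 and 2.04 FPKM at E18.5, with a log2 fold change of -4.41 (SE 0.70, adjusted p = 0.11). Aqp9, a channel for water and glycerol, fell by 1.67 to at most 0.0877 FPKM, a size that also depends on the added 0.1 FPKM. Prss29, an implantation serine protease, fell by 1.23, a call kept in 1 of 6 fits that left out a mouse, with log2 fold changes from -1.81 to -0.83. Slpi and Lcn2, antimicrobial proteins, had overlapping groups with log2 fold changes of 0.50 and -0.02.

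**Figure D3:**
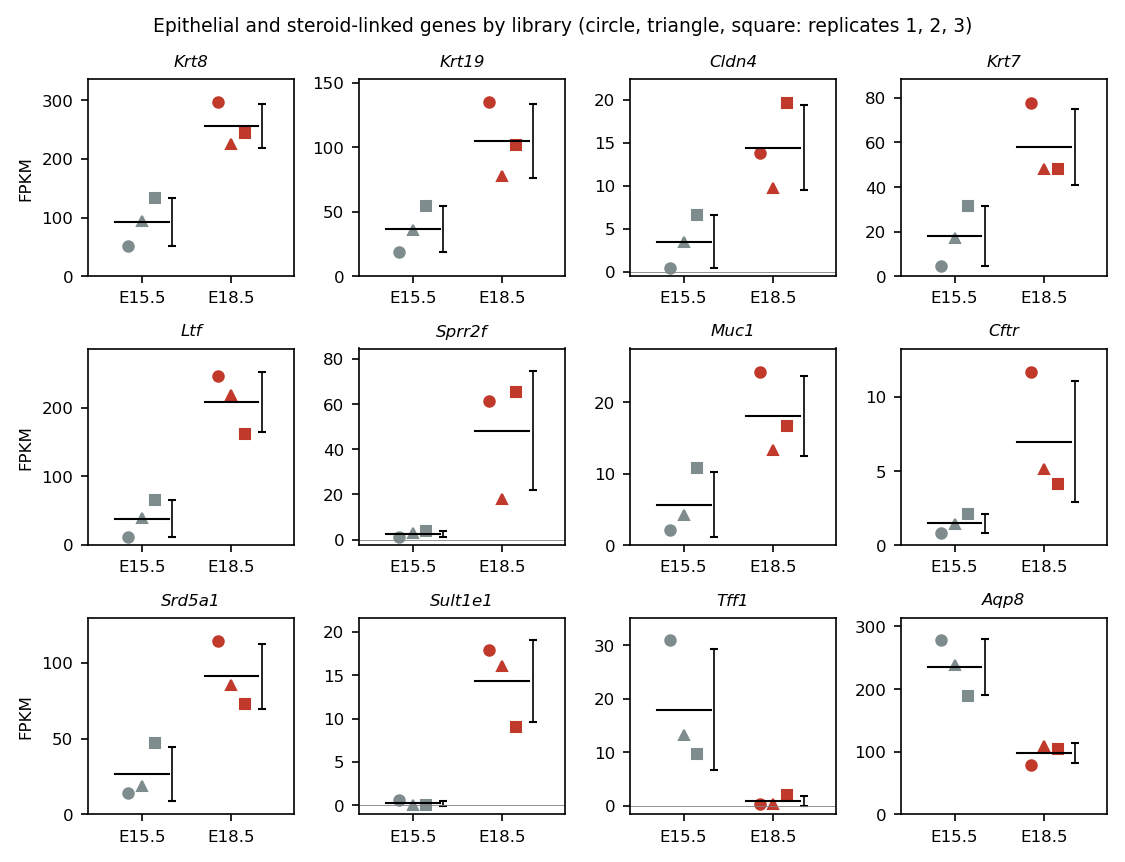
FPKM of epithelial and steroid-linked genes in each library, on a linear axis for each gene, with E15.5 in grey, E18.5 in red, means as black lines and SD of 3 mice as bars. Each of the 12 genes has separated days, upward in 10 and downward for Tff1 and Aqp8, and E15.5 replicate 1 (circle) is the lowest E15.5 library in 9 of them.

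Fibrillar collagens did not pass the criterion in any of 32 tested rows, at a median of -0.09. Col1a1 was at 201, 435 and 477 FPKM at E15.5 and at 373, 381 and 503 FPKM at E18.5, and Col3a1, which shared its row with AC125167.1, at 543, 688 and 758 FPKM and at 498, 519 and 640 FPKM. Both overlapped between the days, with log2 fold changes of 0.26 and -0.26. Lox, the enzyme that cross-links collagen and elastin, and Fbn1, the microfibril protein fibrillin 1, lay lower in all E18.5 libraries, at log2 fold changes of -0.48 and -0.44. Of 48 tested elastic fibre, proteoglycan and matricellular genes, 4 rose and 1 fell at a median of 0.14, against 2.52% and 2.67% of all annotated rows. The counts were 2 and 1 at a median of 0.0098 without E15.5 replicate 1. They were 5 and 2 without E15.5 replicate 3, and 1 and 1 without E18.5 replicate 1. Thbs1, the matricellular protein thrombospondin 1, rose from 16.7, 26.04 and 28.1 FPKM to 85.5, 59.3 and 42.0 FPKM (log2 fold change 1.37, SE 0.31, adjusted p = 0.172). Thbs2 rose by 1.21 and Fn1, fibronectin, by 1.04, and these were lost without E18.5 replicate 1 (0.96 and 0.87), Fn1 also without E15.5 replicate 1 (0.82). Ecm1, an extracellular matrix protein in a row shared with Mir7014, rose by 1.03 and was lost without the same libraries (0.91 and 0.70). Spp1, osteopontin, which shared its row with Gm42793, fell from 1143, 540 and 347 FPKM to 127, 166 and 191 FPKM (log2 fold change -1.91, SE 0.44, adjusted p = 0.182). Lamb3, a laminin chain of epithelial basement membranes, rose by 1.91. It was the single row of 25 tested basement membrane rows to pass, 4% against 5.19% of all annotated rows. The counts that rose and fell were 2 and 1 without E15.5 replicate 3, 2 and 0 without E15.5 replicate 2, and 1 and 1 without E18.5 replicate 1 or with the replicate number as a block.

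Of 41 tested matrix proteases and inhibitors, 6 rose and 2 fell at a median of 0.05, against 2.52% and 2.67% of all annotated rows, and 5 and 2 did without E15.5 replicate 1. Mmp11, stromelysin 3, was at 1.09, 1.98 and 3.14 FPKM at E15.5 and at 20.9, 19.2 and 10.5 FPKM at E18.5, rising by 3.02 (SE 0.41, adjusted p = 0.0797). Mmp7, the epithelial metalloprotease matrilysin, was at 14.98, 16.5 and 36.7 FPKM and at 126, 116 and 81.2 FPKM, rising by 2.34 (SE 0.36, adjusted p = 0.102). Adamts4, an aggrecanase that cuts proteoglycans, rose by 1.52 (SE 0.20, adjusted p = 0.0788). For these proteases the lowest E18.5 library lay above the highest E15.5 library, and each passed in every fit that left out a mouse. A2m, the broad protease inhibitor alpha 2 macroglobulin, fell from 622, 216 and 118 FPKM to 30.4, 37.5 and 45.3 FPKM (log2 fold change -2.75, SE 0.56, adjusted p = 0.156). Mmp13, an interstitial collagenase, fell by 1.88 from levels under 1 FPKM. Ctsk, the collagen-cutting cathepsin K, lay lower in all E18.5 libraries, at 128, 182.9 and 230 FPKM against 311, 307 and 327 FPKM, and its log2 fold change of -0.84 was under the criterion. Mmp2, Mmp3, Mmp9 and Timp1 did not pass, with log2 fold changes of 0.57, 0.08, 0.26 and -0.51.

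Genes of natural killer, T, B and mast cells had the lowest median of the 36 lists. With 1 FPKM added in place of 0.1, the erythroid list was lower (-0.57 against -0.53). Of 29 tested, 16 fell, against 2.67% of all annotated rows, and 2 rose, and the list median was -1.57. All 7 granzymes fell, and their summed level was 9735, 5013 and 3874 FPKM at E15.5 and 356, 490 and 1458 FPKM at E18.5. Gzmb, a granzyme that triggers death of target cells, was at 180.8, 92.3 and 51.3 FPKM at E15.5 and at 3.03, 4.44 and 14.2 FPKM at E18.5, with a log2 fold change of -4.01 (SE 0.65, adjusted p = 0.112). Gzmd, among the most abundant, was at 2483, 1149 and 906 FPKM and at 78.8, 110 and 347 FPKM, with a log2 fold change of -3.25 (SE 0.63, adjusted p = 0.146). Gzmc, Gzme, Gzmf and Gzmg fell as well, with log2 fold changes of -3.55, -3.47, -2.88 and -3.22. E15.5 replicate 1 was the highest library and E18.5 replicate 3 the highest of its day, and the days did not overlap for these genes. Granzymes C to G are close copies of each other, so the split of reads between them is uncertain.

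Prf1, the pore-forming perforin, was at 169, 122 and 76.9 FPKM at E15.5 and at 4.59, 7.13 and 25.1 FPKM at E18.5, with a log2 fold change of -3.62 (SE 0.62, adjusted p = 0.121). Receptors and regulators of the natural killer lineage fell as well: Il2rb, the beta chain of the receptor for interleukins 2 and 15, by 2.59, the transcription factor Eomes by 2.40, the activating receptor Ncr1 by 1.86, the lectin receptor Klrd1 by 1.78 and the granule protein Nkg7 by 1.57. Outside the list, the inhibitory receptors Klrg1 and Ctla4 had log2 fold changes of -3.46 and -3.66. They were among the 12 largest falls over annotated protein-coding rows outside the attached-tissue lists. The rows ranked averaged at least 1 FPKM, with an unadjusted p below 0.01 and no overlap between the days. Cd3e, which marks T cells, was below the filter. The mast cell genes Mcpt4 and Cpa3 rose by 1.10 and 1.001, in calls that were lost without E15.5 replicate 2 (0.999 and 0.87), E15.5 replicate 3 (0.89 and 0.82) or E18.5 replicate 3 (0.91 and 0.85). The number of rows that fell was 15 without E15.5 replicate 1 and 14 to 16 over all fits that left out a mouse. Il15, the cytokine on which uterine natural killer cells depend, had a log2 fold change of -0.28 with overlapping groups.

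**Figure D4:**
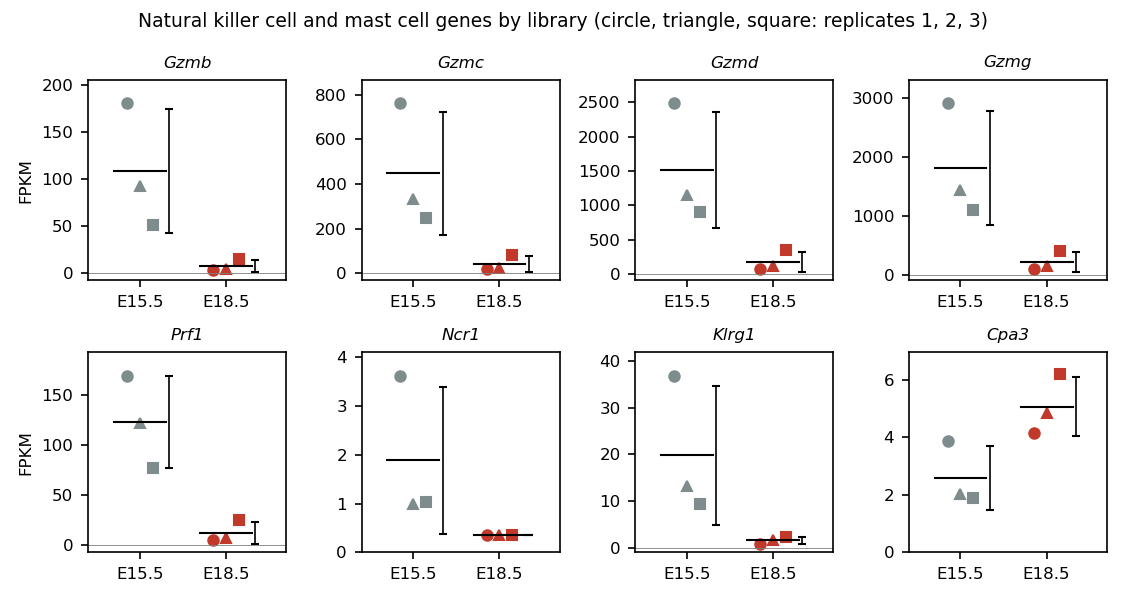
FPKM of natural killer cell and mast cell genes in each library, on a linear axis for each gene, with E15.5 in grey, E18.5 in red, means as black lines and SD of 3 mice as bars. For the 7 natural killer genes each E18.5 library lies below each E15.5 library, with E15.5 replicate 1 (circle) highest, while the mast cell protease Cpa3 lies above.

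Of 47 tested cytokines and chemokines, 2 rose and 3 fell at a median of -0.01, which is 10.6% called against 5.19% of all annotated rows. Without E15.5 replicate 1 the counts were 2 and 2, and without E15.5 replicate 3 they were 4 and 5. Cxcl17, a chemokine of mucous epithelia, was at 0.281, 1.06 and 10.3 FPKM at E15.5 and at 143, 86.0 and 74.3 FPKM at E18.5, rising by 5.87 (SE 1.10, adjusted p = 0.141). Ccl28, another mucosal chemokine, fell from 50.9, 39.6 and 22.5 FPKM to 5.61, 6.05 and 9.16 FPKM (log2 fold change -2.38, SE 0.33, adjusted p = 0.0828). Il1r2, a decoy receptor that binds interleukin 1, fell from 34.5, 46.4 and 39.8 FPKM to 7.13, 8.32 and 17.8 FPKM (log2 fold change -1.96, SE 0.34, adjusted p = 0.124). Each of these changes was larger than the spread within the days. The chemokine Cxcl14 fell by 1.59 and was lost without E15.5 replicate 1 (-0.95), E18.5 replicate 2 (-1.58) or E18.5 replicate 3 (-1.43).

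The inflammatory signals usually followed at labor did not pass. Il1b, the cytokine interleukin 1 beta, had a log2 fold change of 0.20, Tnf of -0.01, Cxcl1 of -0.18 and Ccl2 of 0.08, each with overlapping groups, and Il6 was below the filter. Of 35 tested macrophage and antigen presentation genes 1 fell, against 2.67% of all annotated rows. This was Chil3, by 1.13, with overlapping groups of 0.547 to 1.58 FPKM at E15.5 and 0.257 to 0.596 FPKM at E18.5. None fell without E15.5 replicate 1, E18.5 replicate 2 or E18.5 replicate 3, and 3 fell without E15.5 replicate 2. Adgre1 and Cd68, defining macrophage markers, had log2 fold changes of -0.15 and -0.15. Of 14 tested neutrophil genes 2 rose and 2 fell, which is 28.6% called against 5.19% of all annotated rows, and the counts were 1 and 1 without E15.5 replicate 2 or E18.5 replicate 1 and 2 and 1 without E15.5 replicate 1. The rows that rose were Ltf, which the epithelium also makes, and Cxcr2, a receptor for neutrophil chemokines, whose groups overlapped. Il1r2, described above, and Clec4e, a lectin receptor of myeloid cells, fell, the latter by 1.27 with overlapping groups. Clec4e and Gdf9, an ovarian gene below, are named after their values were seen. The neutrophil calprotectin genes S100a8 and S100a9 did not pass, and their groups overlapped as well. Of 29 complement genes Clu alone passed, 3.45% against 5.19% of all annotated rows, while 3 rose and 1 fell without E15.5 replicate 3. None of 45 interferon-stimulated genes passed, with a median of -0.19. Flt1, a receptor for vascular growth factors on endothelium, rose from 2.04, 2.62 and 2.73 FPKM to 6.15, 6.37 and 5.57 FPKM (log2 fold change 1.27, SE 0.16, adjusted p = 0.0722). Cdh5, the cadherin of endothelial junctions, fell from 104, 129 and 101 FPKM to 32.8, 47.1 and 63.8 FPKM (log2 fold change -1.26, SE 0.25, adjusted p = 0.153). These were the calls among 24 tested stromal and endothelial markers, 8.33% against 5.19% of all annotated rows.

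Most members of the metabolic lists did not pass. None of 80 oxidative phosphorylation genes rose or fell, at a median of -0.08, and at most 1 rose when a mouse was left out. Of 41 glycolysis and hypoxia genes 3 fell and none rose, against 2.67% and 2.52% of all annotated rows. All 3 were targets of hypoxia-inducible factors. The number that fell was 1 without E15.5 replicate 1, 2 without E18.5 replicate 1, 6 without E15.5 replicate 3 and 5 without E18.5 replicate 3, and at most 1 rose. Higd1a had a log2 fold change of -1.295, Ankrd37 of -1.10 and Bnip3 of -1.01. Ankrd37 and Bnip3 were lost without E15.5 replicate 1 (-0.91 and -0.72) or E18.5 replicate 1 (-0.92 and -0.85). Ldha, Slc2a1 and Vegfa, other targets, had log2 fold changes of -0.37, -0.02 and -0.18. Gatm, the first enzyme of creatine synthesis, fell from 705, 362 and 257 FPKM to 26.4, 65.7 and 127 FPKM (log2 fold change -2.74, SE 0.61, adjusted p = 0.173). Lpl, lipoprotein lipase, which frees fatty acids for uptake, rose from 2.76, 4.42 and 3.66 FPKM to 11.03, 10.1 and 5.97 FPKM (log2 fold change 1.27, SE 0.28, adjusted p = 0.167). The fatty acid carrier Cd36 lay higher in all E18.5 libraries at a log2 fold change of 0.71, under the criterion. Gatm and Lpl were the only calls on the list of 53 tested genes for the TCA cycle and fatty acid oxidation. That is 3.77%, against 5.19% of all annotated rows. Neither is itself an enzyme of either pathway. The list median was 0.00. On this list 3 rose and 2 fell without E15.5 replicate 3, 2 and 2 without E18.5 replicate 3, and 2 and 1 without E15.5 replicate 2 or E18.5 replicate 2.

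Of 37 cholesterol and fatty acid synthesis genes 1 rose and none fell, at a median of 0.10, against 2.52% and 2.67% of all annotated rows. None rose in 5 of the 6 fits that left out a mouse, the fit without E15.5 replicate 1 among them. Fasn, fatty acid synthase, lay higher in all E18.5 libraries at a log2 fold change of 0.79. The ribosomal protein genes did not pass in any of 80 rows, but 78 of them had a negative fold change at a median of -0.34, which was -0.09 to -0.54 when a mouse was left out. Their summed FPKM was 15251 in E15.5 replicate 1 and 7541 to 9784 in the other 5 libraries. Of 35 genes of ER stress and heat shock 2 rose and none fell, 5.71% called against 5.19% of all annotated rows. Hspa1a and Hspa1b, near-identical copies of the inducible chaperone Hsp70, rose by 1.57 and 1.31, Hspa1b being just under the fold criterion without E15.5 replicate 1. Of 60 cell cycle genes 2 fell and none rose, 3.33% called against 5.19% of all annotated rows. The list median was -0.17, and 43 of the genes had a negative fold change. The 2 that fell were subunits of ribonucleotide reductase, which makes the building blocks of DNA. Rrm2 was at 131, 76.3 and 56.4 FPKM at E15.5 and at 6.70, 10.9 and 20.8 FPKM at E18.5 (log2 fold change -2.83, SE 0.46, adjusted p = 0.112). Rrm1 fell by 1.19 and was lost without E15.5 replicate 1 (-0.72) or E18.5 replicate 1 (-1.04). Mki67 and Top2a, which mark dividing cells, overlapped between the days at log2 fold changes of -0.39 and -0.43.

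Over all annotated protein-coding rows outside the attached-tissue lists, the largest rise among rows averaging 1 FPKM or more, with an unadjusted p below 0.01 and no overlap, was that of Kap, the kidney androgen-regulated protein. Its level was 1.66, 14.4 and 172 FPKM at E15.5 and 2548, 1169 and 985 FPKM at E18.5, and it rose by 6.45 (SE 1.4999, adjusted p = 0.183). The E15.5 libraries differed widely, in the same order as Cxcl17 and the summed keratin and junction genes, and all lay below E18.5. Hsd3b1, a 3 beta-hydroxysteroid dehydrogenase of steroid synthesis, was at 0.0576, 0.0867 and 1.46 FPKM and at 21.6, 40.9 and 1.99 FPKM, rising by 5.10 (SE 1.29, adjusted p = 0.205). It belonged to the list of ovarian steroid genes together with Cyp17a1, which rose by 2.07, while Star, the cholesterol carrier of the ovary, overlapped between the days at a log2 fold change of 0.13. Cyp11a1, the enzyme that begins steroid synthesis, in a row shared with Gm17322, lay lower in all E18.5 libraries, at 19.7, 18.48 and 22.7 FPKM at E15.5 against 8.53, 14.9 and 17.4 FPKM at E18.5, and did not pass (log2 fold change -0.63). Of the 7 tested ovarian genes 2 rose, against 2.52% of all annotated rows, or 3 without E15.5 replicate 3. In 3 of the 7 all E18.5 libraries lay above all E15.5 libraries, against 10.9% of all annotated rows. In 2 they all lay below, against 8.92%. These 2 were Cyp11a1 and the oocyte factor Gdf9, the latter under 1 FPKM throughout. None of 12 tested fat cell genes passed, and when a mouse was left out at most 1 rose and at most 1 fell.

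The other large rises were Fnd3c2 at 4.59, the ferritin-like gene Fthl17a at 4.58, the transcription factor subunit Taf7l at 4.12, 2010109I03Rik at 3.78, the serine protease inhibitor Serpinb9d at 3.65, the kinase Dclk3 at 3.55 and Klhdc7a at 3.41. Fnd3c2, Taf7l and 2010109I03Rik were at most 0.126 FPKM in all E15.5 libraries, so the size of their rise depends on the added 0.1 FPKM. The other large falls were Tdrd9 at -3.62 and Tmsb15a, a thymosin, at -3.49. Like the granzymes, these were highest in E15.5 replicate 1 among the E15.5 libraries and lower in all E18.5 libraries.

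Genes of tissues that may have stayed on the uterine wall are described apart. The trophoblast list had the most rows that rose of any list, with 31 that rose and 3 that fell of 60 tested, against 2.52% and 2.67% of all annotated rows, at a median of 1.93. Without E15.5 replicate 1 the counts were 35 and 3. Tpbpb, a spongiotrophoblast gene, was at 1.515, 0.942 and 1.25 FPKM at E15.5 and at 24.1, 29.5 and 24.6 FPKM at E18.5, with the groups far apart (log2 fold change 4.31, SE 0.19, adjusted p = 0.00258). Ceacam11, a placental member of the carcinoembryonic antigen family, rose from 0.407, 0.827 and 0.417 FPKM to 19.02, 26.6 and 14.3 FPKM (log2 fold change 4.96, SE 0.32, adjusted p = 0.013). Prl8a6, a placental prolactin relative, rose from 0.150, 0.108 and 0.114 FPKM to 12.3, 16.02 and 5.35 FPKM (log2 fold change 5.53, SE 0.40, adjusted p = 0.0218). These were 3 of the 6 annotated rows with an adjusted p below 0.05.

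By family, 7 of 21 tested prolactin family rows rose and 1 fell, and 10 of 12 pregnancy-specific glycoprotein (Psg) rows rose. Of 10 Ceacam rows 5 rose and 2 fell, and 9 of 17 other trophoblast rows rose, against 2.52% and 2.67% of all annotated rows. Members of these families are close copies, and their values are uncertain one by one. Prl2a1 rose by 5.02, and Prl6a1, in a row shared with Gm11357, fell by 2.25, as did Ceacam18 by 3.20. Prl8a2, a prolactin family hormone of the decidua, was at 1342, 72.1 and 86.0 FPKM at E15.5 and at 40.2, 47.8 and 58.7 FPKM at E18.5. It made up most of the trophoblast list in E15.5 replicate 1, and its log2 fold change of -2.07 did not pass. With Prl8a2 left out, the summed trophoblast level was 216, 48.6 and 54.3 FPKM at E15.5 and 415, 533 and 353 FPKM at E18.5. All E18.5 uteri thus held more trophoblast RNA than any E15.5 uterus by this sum.

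The decidua list, also without Prl8a2, summed to 168, 129 and 126 FPKM at E15.5 and to 155.3, 134 and 143 FPKM at E18.5. Of the 15 tested rows of the list 2 rose and 1 fell, against 2.52% and 2.67% of all annotated rows, or 1 and 2 without E15.5 replicate 1. Leaving out E18.5 replicate 1 gave 1 and 1, and leaving out E15.5 replicate 2, E18.5 replicate 2 or E18.5 replicate 3 gave 2 and 2. Bmp8a, a growth factor of the decidua, fell from 7.66, 6.16 and 6.56 FPKM to 2.40, 2.82 and 3.31 FPKM (log2 fold change -1.23, SE 0.17, adjusted p = 0.0788). Wnt4 rose by 1.24, and Cryab, a small heat shock protein, by 1.12, the latter lost without E15.5 replicate 1 (0.97) or E18.5 replicate 1 (0.96). The Prl8a2 level of E15.5 replicate 1 moved together with its high granzymes and low keratins, and its part in those results was not tested beyond leaving that library out.

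The yolk sac level differed widely between libraries of the same day. Afp, alpha-fetoprotein, was at 0.366, 80.2 and 586 FPKM at E15.5 and at 135, 427 and 71.8 FPKM at E18.5, with overlapping groups (log2 fold change 2.52, SE 2.41, adjusted p = 0.702). The summed level of the list was 61.4, 253 and 1435 FPKM at E15.5 and 434, 1081 and 298 FPKM at E18.5. E15.5 replicate 3 and E18.5 replicate 2 were thus the high libraries, and E15.5 replicate 1 was lowest. None of 34 tested rows rose and 2 fell, 5.88% called against 5.19% of all annotated rows. Apoa2 fell by 2.65 and Amn, an endocytic receptor partner of the yolk sac, by 1.53. The counts were 7 and 3 without E15.5 replicate 3, and 0 and 5 without E15.5 replicate 1.

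Of 10 tested erythroid rows, 3 fell and 1 rose, against 2.67% and 2.52% of all annotated rows. These counts changed with the libraries used. Without E15.5 replicate 2 or E18.5 replicate 3, 1 fell and none rose. Without E18.5 replicate 2, 1 fell and 1 rose, and without E18.5 replicate 1, 4 fell and none rose. With the replicate number as a block, 1 fell and 1 rose. Hbb-y, the embryonic beta globin, was at 0.859, 57.98 and 4.79 FPKM at E15.5 and at 0, 0 and 0.130 FPKM at E18.5, with a log2 fold change of -5.62 (SE 1.36, adjusted p = 0.192), while the adult globin Hbb-bs overlapped between the days at a log2 fold change of -0.66. Genes of the Y chromosome summed to at most 0.405 FPKM in any library. Of the 4, Ddx3y alone passed the filter and rose by 1.21, from 0.0256, 0.106 and 0 FPKM to 0.232, 0.222 and 0.198 FPKM, a call lost without E15.5 replicate 3 (0.98), E18.5 replicate 1 (1.17) or E18.5 replicate 2 (1.20). Outside the attached-tissue lists 565 annotated rows rose and 625 fell.

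**Figure D5:**
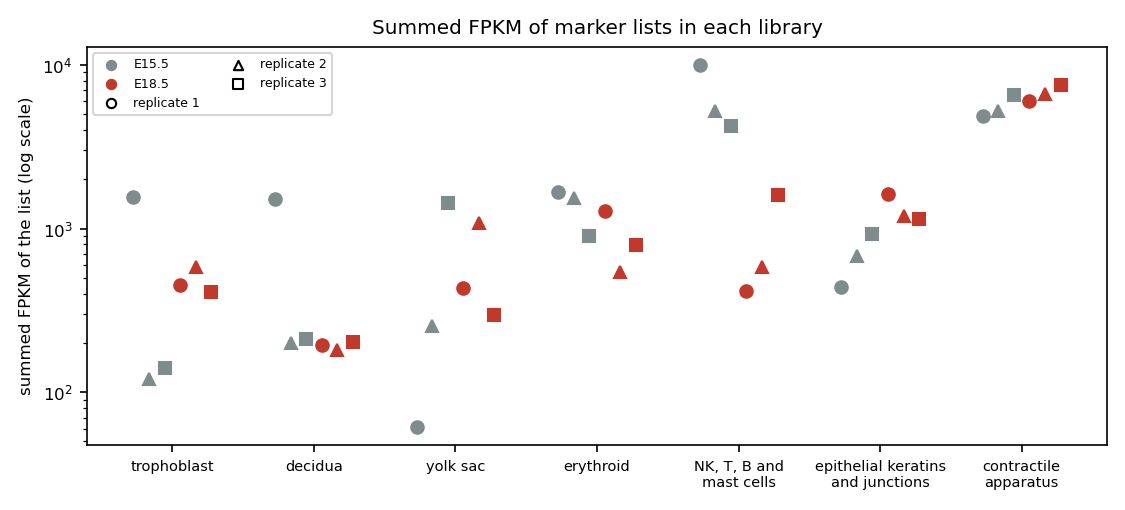
Summed FPKM of marker lists in each library, on a log axis, with E15.5 in grey, E18.5 in red and a symbol for each replicate. E15.5 replicate 1 stands high for trophoblast and decidua (1558 and 1510 FPKM) through Prl8a2, which is on both lists and without which these sums are 216 and 168 FPKM, the former below all E18.5 libraries (353 to 533 FPKM), yolk sac sums range from 61.4 to 1435 FPKM within a day, and the natural killer, T, B and mast cell sum is 413 to 1613 FPKM at E18.5 against 4236 to 9967 FPKM at E15.5.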

How the data were processed

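Libraries from the uteri of 6 pregnant ICR mice, 3 at E15.5 and 3 at E18.5, were compared. The authors deposited FPKM values from StringTie assemblies, read here as deposited. Per the labels, the submitters' processing notes name Bowtie 0.12.2, HISAT2 2.0, StringTie 1.3.0 and the builds mm10 and mm8, with no role for each build. The study's methods name Cutadapt, Bowtie2, TopHat2 and Ballgown, and describe ribosomal RNA depletion where the labels describe poly(A) selection, so the library type is uncertain. The FPKM table gives no read counts, lengths or coordinates, so the depth is unknown and no counting interval is given. FPKM sums over the table were 470090 to 561126 per library. Assembled rows can merge overlapping genes, as 1076 tested annotated rows did, and their values belong to all genes in the row. Gene classes came from RefSeq symbols, and 4618 tested annotated rows had no match. No sequence is printed, since none of the tables used here held one.

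Rows averaging 0.1 FPKM or more in the 6 libraries were fitted together by limma 3.58.1 (R 4.3.3) with an intensity trend on log2(FPKM + 0.1), and p-values were adjusted by Benjamini-Hochberg over 30928 rows. A row passed the criterion at a log2 fold change of 1 or more in size and p below 0.05 before adjustment. The fit was tested on simulated data. With no change simulated, 534 of 30928 rows, annotated or not, passed the criterion and 0 passed the adjusted p. Genes were placed on 36 lists of 1323 entries, and list medians carry no test. The members and lists were chosen with earlier results of these data known. The named genes were the defining genes of each list and up to 4 per list and direction with the largest change among called rows of at least 1 FPKM. Added to these were the 12 per direction with the largest change over annotated protein-coding rows outside the attached-tissue lists. Those rows averaged at least 1 FPKM, with p below 0.01 and no overlap. Other list members named were chosen after their values were seen, and some genes that the rule names are not reported here. Same-numbered mice did not pair, with correlations of their deviations from the day means of 0.05, 0.04 and -0.07. The table of E0.5 and E4.5, assembled and normalized separately, was not used here.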

Additional observations from a re-analysis of the deposited data

How the results depend on the processing

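The values are FPKM without counts, 1 library stood apart, and attached tissue differed between uteri, which limits every list. None of the 103 named genes that passed the criterion reversed under any alternative, and 76 were kept in each fit that left out a mouse. The replicate number as a block gave 552 rows that rose, 631 that fell and 1 past the adjusted p, though the numbers do not pair the mice, and it kept 101 of the 103. Rows that rose and fell came to 299 and 263 with a mean of at least 1 FPKM, 207 and 171 with a pseudocount of 1, and 1414 and 1228 with no fold change minimum. When a mouse was left out they ranged from 435 to 870 and from 555 to 795. Rows past the adjusted p, 6 as reported, came to 3 with a mean of at least 1 FPKM, 36 when rescaled without attached-tissue lists, 19 without the limma trend, 145 with array weights, 13 when rescaled to the protein-coding rows outside those lists, a scaling chosen after seeing the data, and 0 to 23 when a mouse was left out. They were 0 without E18.5 replicate 1, where 435 rows rose and 555 fell at the unadjusted criterion. The cause of the shifts in list medians was not tested. With a mean of at least 1 FPKM required, the medians became -2.22 for natural killer, T, B and mast cells, 3.06 for trophoblast, 0.75 for ovary, 0.19 for contraction receptors, 0.13 for matrix proteases, 0.084 for relaxing machinery, -0.014 for basement membrane and 0.15 for uterine identity. With a pseudocount of 1 they became -0.53 for natural killer, T, B and mast cells, 0.67 for trophoblast, -0.049 for basement membrane, 0.12 for uterine identity and 0.22 for the Y-linked row, and with 0.01 they became 2.67 for trophoblast, 2.71 for the Y-linked row and 0.014 for progesterone targets. Contraction receptors went to -0.072 under 75th percentile scaling, -0.069 under quantile normalization, 0.047 and -0.034 under the rescalings and 0.021 with array weights. The 75th percentile also gave -0.017 for matrix proteases, -0.063 for the TCA cycle and 0.17 for uterine identity, and rescaling without attached tissue gave 0.11 and 0.28 for the first and last of these. Array weights gave 0.13 for complement, 0.50 for contraction signals, 0.068 for decidua and 0.10 for ER stress, and the log2 ratio of group means gave 1.38 for trophoblast. Leaving out a mouse gave ranges of 0.064 to 0.31 for complement, -0.041 to 0.039 for contraction receptors, 0.056 to 0.43 for contraction signals, -0.16 to 0.18 for decidua, 0.53 to 0.76 for immediate early genes, -0.082 to 0.14 for cytokines, 0.00040 to 0.12 for matrix proteases, 0.037 to 0.19 for progesterone targets, -0.071 to 0.099 for relaxing machinery, 0.071 to 0.20 for stroma and endothelium, -0.014 to 0.090 for the TCA cycle and 1.69 to 2.34 for trophoblast.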

Other observations

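The genes in this section were chosen after their values were seen. Mt1, a metallothionein that binds zinc and copper, was at 94.4, 68.0 and 76.5 FPKM at E15.5 and at 30.8, 24.5 and 27.6 FPKM at E18.5, falling by 1.52 on the log2 scale (SE 0.17, adjusted p = 0.0612), and Mt2, of the same family, fell by 1.73 (SE 0.24, adjusted p = 0.0905). Neither overlapped between the days. Aldh1a3, which makes retinoic acid, rose from 0.937, 0.503 and 0.554 FPKM to 2.49, 2.85 and 4.30 FPKM (log2 fold change 2.12, SE 0.30, adjusted p = 0.0905), and Rdh10, which makes its precursor retinal, rose by 1.36. Akr1c14, a 3 alpha-hydroxysteroid dehydrogenase that acts on 5 alpha-reduced progesterone, rose from 18.9, 19.2 and 25.8 FPKM to 112, 55.1 and 37.3 FPKM (log2 fold change 1.54, SE 0.38, adjusted p = 0.201), while Cyp11b1, an enzyme of corticosteroid synthesis, fell by 1.72.

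Ion channels and receptors outside the lists also passed the criterion. Scn9a, a voltage-gated sodium channel, was at 0, 0 and 0.0173 FPKM at E15.5 and at 1.04, 1.02 and 0.866 FPKM at E18.5, a low but clearly separated level (log2 fold change 3.35, SE 0.29, adjusted p = 0.0397). Kcnk5, a background potassium channel, rose from 4.21, 5.68 and 6.09 FPKM to 13.9, 14.02 and 13.5 FPKM (log2 fold change 1.38, SE 0.16, adjusted p = 0.0648). Havcr2, an inhibitory receptor of natural killer and T cells, fell by 2.98 (SE 0.41, adjusted p = 0.0826), and Mcpt8, a protease of basophils, fell from 3.33, 2.54 and 2.59 FPKM to 0.154, 0.363 and 0.385 FPKM (log2 fold change -2.91, SE 0.31, adjusted p = 0.0545), unlike the mast cell genes Mcpt4 and Cpa3. The pseudogene-like rows Gm9833 and Gm8893 were listed at 0 in all libraries of E15.5 and of E18.5 respectively, with 2.86 to 3.3998 and 1.82 to 4.83 FPKM on the other day.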
